A study of Mus musculus with 12 samples.

Results

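The beta chains of the sodium pump (Na,K-ATPase) were examined in whole retina of diabetic and normoglycaemic mice. Their genes Atp1b1, Atp1b2 and Atp1b3 were found by symbol in the platform annotation, each on 1 line of the value table, and make up 3 of the 24570 named genes. The 12 samples were C57Bl6/J mice with 1 array each. The 6 diabetic animals were males given 160 mg/kg streptozotocin, which destroys pancreatic beta cells, into the peritoneum at 8 weeks of age and 24 to 26 g, and had a blood glucose above 15 mM after 7 days. The 6 controls were normoglycaemic and had received no streptozotocin. All retinas were collected at 6 weeks, which for the diabetic animals is given both as an age and as the time since induction. An age of 6 weeks cannot hold with an injection at 8 weeks of age, which leaves the time since induction. For the controls it is not settled here whether 6 weeks is an age or a matched time. Whether the groups differed in age is therefore not settled either. Streptozotocin diabetes is a model of insulin loss, and the drug itself was given to the diabetic animals alone, so drug and diabetes cannot be told apart. The animals' label numbers form ranges that do not overlap between the groups, and the labels do not say what they number.

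The sodium pump exports sodium and imports potassium at the expense of ATP. Each pump pairs a catalytic alpha chain with a beta chain, a glycoprotein with a single membrane span that the alpha chain needs in order to leave the endoplasmic reticulum and reach the cell surface. In the retina the pump maintains the ion gradients that drive the dark current of photoreceptors, the firing of inner neurons, and the uptake of glutamate by Mueller glia. Atp1b1 encodes the most widespread beta chain. Atp1b2 encodes the beta chain first described as an adhesion molecule of glia, which is also found at photoreceptor inner segments. Atp1b3 encodes another, broadly expressed beta chain. Of the catalytic chains, Atp1a4, the chain of sperm, was analysed here.

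Start regions were taken from RefSeq (GRCm38.p6), where windows matched Atp1b1, Atp1b3 and Fxyd6, a pump regulator described further on. They are shown to set apart 2 beta chain genes whose levels are compared across arrays and the pump gene that differed between the groups. Each sequence runs 5′ to 3′ on the strand of the gene over the 250 bases before the start. The Atp1b1 window lies on the minus strand at chr1:164458356-164458605, the Atp1b3 window on the minus strand at chr9:96364432-96364681 and the Fxyd6 window on the plus strand at chr9:45369935-45370184. Capitals mark 3 motifs searched on both strands. One is a TATA element, spelled TATATA. Another is the GC box, spelled GGGCGG. On the opposite strand it reads CCGCCC. The last is the CCAAT box. On the opposite strand that box reads ATTGG. The Atp1b3 window is the outer of 2 listed for the gene, and the Fxyd6 window lies inside the outermost start annotated for the gene.
Atp1b1: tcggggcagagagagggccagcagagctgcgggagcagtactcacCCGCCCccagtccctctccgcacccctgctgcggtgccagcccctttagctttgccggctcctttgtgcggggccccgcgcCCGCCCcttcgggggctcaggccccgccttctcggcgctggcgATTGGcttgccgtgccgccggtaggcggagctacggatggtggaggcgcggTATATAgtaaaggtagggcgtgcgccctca
Atp1b3: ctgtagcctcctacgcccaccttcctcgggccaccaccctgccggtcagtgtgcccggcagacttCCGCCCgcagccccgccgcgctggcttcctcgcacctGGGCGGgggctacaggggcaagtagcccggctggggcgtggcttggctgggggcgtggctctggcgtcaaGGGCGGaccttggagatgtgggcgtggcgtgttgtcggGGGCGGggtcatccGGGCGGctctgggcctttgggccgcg
Fxyd6: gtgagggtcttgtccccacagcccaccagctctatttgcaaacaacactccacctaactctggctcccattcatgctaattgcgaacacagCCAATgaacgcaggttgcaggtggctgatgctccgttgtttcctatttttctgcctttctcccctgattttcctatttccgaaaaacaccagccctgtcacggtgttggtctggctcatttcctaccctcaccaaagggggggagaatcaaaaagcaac

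The Atp1b1 window held the TATA element 30 bases before the start, the CCAAT box on the other strand 81 bases before it, and 2 GC boxes. The Atp1b3 window held 5 GC boxes and neither of the other motifs. The Fxyd6 window held a single CCAAT box, 159 bases before the start, and neither of the others. G and C made up 70.4% of the Atp1b1 window, 73.6% of that of Atp1b3 and 50.4% of that of Fxyd6, where the median of all windows was 52.4%. Of 32851 windows of the same length in the table, 5.25% held the TATA element, 32.7% a GC box and 33.8% a CCAAT box, on either strand. These matches describe the letters and were not tested against the array values.

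The arrays correlated at 0.993 to 0.998 over all genes. Rod markers (array means of 12.16 to 12.36) and Mueller glia markers (10.10 to 10.39) were bright on every array, and red blood cell markers stayed between 5.29 and 5.35. Lens markers stood apart on diabetic 6 (7.77) and diabetic 2 (7.15), where controls reached 6.70 at most, and pigment epithelium markers were highest on diabetic 6 (7.60). For differences between the groups, values without these 2 arrays are given for the beta chains and Fxyd6. Other genes have them where they moved the difference by over 1.5 times or ended a call. Differences between beta chains on the same array were not recomputed without both. Correlations were recomputed so only for marker lists on which these 2 arrays lay farthest out.

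None of the 3 beta chains passed the test between diabetic and control retinas (limma, Benjamini-Hochberg adjustment over all genes, threshold 0.05), where 3.24% of all genes did. For Atp1b1 and Atp1b2 the difference was close to 0 with a narrow interval, whereas Atp1b3 varied so much between animals of the same group that a change of over 1.3-fold lay within its interval. Values are log2 RMA values, on which the array median was 5.73 and the highest value 14.10. The value of a gene also depends on its probes, so the values do not rank the RNA amounts of different genes.

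Atp1b1 read 11.61, 11.73, 11.74, 11.66, 11.58 and 11.52 in controls 1 to 6. In diabetic animals 1 to 6 it read 11.70, 11.47, 11.73, 11.69, 11.57 and 11.69. The groups overlapped over nearly their whole range, with diabetic 2 the lowest array and control 3 the highest. Controls had a mean of 11.64 ± 0.09 and diabetic retinas one of 11.64 ± 0.10 (SD, n = 6 each). The log2 difference, diabetic minus control, was -0.0016 ± 0.051 (SE; adjusted p = 0.991, limma). Its 95% interval ran from -0.11 to 0.11, which is 0.925-fold to 1.08-fold. Without diabetic 2 and 6 the difference was 0.029.

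Atp1b2 had the smallest spread of the 3. Controls 1 to 6 read 12.50, 12.54, 12.58, 12.53, 12.67 and 12.48, and diabetic animals 12.53, 12.54, 12.56, 12.54, 12.56 and 12.54. All 6 diabetic values fell inside the control range, in which control 5 was the highest array. The control mean was 12.55 ± 0.069 and the diabetic mean 12.55 ± 0.014 (SD, n = 6 each). The log2 difference was -0.0033 ± 0.028 (SE; adjusted p = 0.963, limma), with a 95% interval from -0.064 to 0.058, or 0.956-fold to 1.04-fold. It was -0.0015 without diabetic 2 and 6. Between 28 and 37 lines of the table lay above Atp1b2 on a control array and between 33 and 35 on a diabetic array. Because every array was forced onto the same set of values, a gene this near the top can take few values, and 4 arrays shared the value 12.54 (12.544922).

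Atp1b3 was the variable member. Controls 1 to 6 read 10.24, 10.28, 10.23, 10.14, 9.57 and 10.03. Diabetic animals 1 to 6 read 10.08, 9.92, 10.33, 10.44, 10.12 and 10.55. Control 5 was the lowest array by a wide margin, and diabetic 3, 4 and 6 lay above every control, while the other 3 diabetic arrays lay within the control range. The control mean was 10.08 ± 0.27 and the diabetic mean 10.24 ± 0.24 (SD, n = 6 each). The log2 difference was 0.16 ± 0.14 (SE; adjusted p = 0.545, limma), with a 95% interval from -0.14 to 0.45, or 0.910-fold to 1.37-fold. Without control 5 the difference was 0.056 (adjusted p = 0.809, limma), and without diabetic 6 it was 0.097. It was 0.16 without both diabetic 2 and 6, and 0.089 with the rod marker mean as a covariate.

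**Figure D1:**
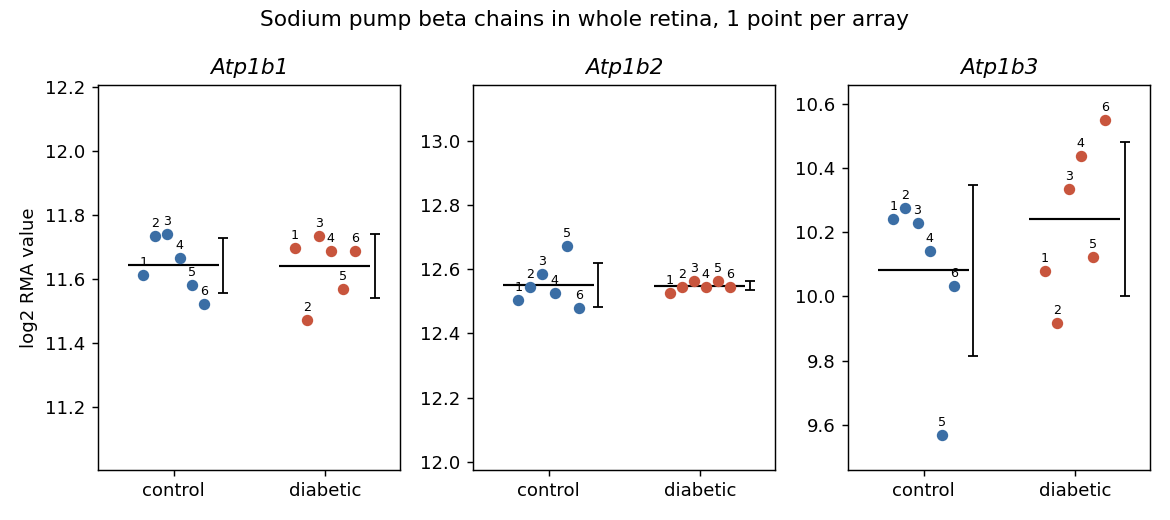
Log2 RMA values of the 3 beta chain genes, 1 point per array with its replicate number, for 6 control and 6 diabetic retinas; the line is the group mean and the bar the SD, and every panel spans 1.2 log2 units. Atp1b1 and Atp1b2 stay within a narrow band in both groups, while Atp1b3 spans 9.57 to 10.55 with control 5 lowest.

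The spread of Atp1b3 was large for its level. Its SD within groups was 0.253, more than that of 98.9% of the 1083 genes whose mean lay within 0.5 of its own. The SD of Atp1b1 was 0.094, above 75.5% of the 229 genes of like level, and that of Atp1b2 was 0.050, above 24.6% of the 65 genes of like level. The number of lines above Atp1b3 ran from 912 to 1794 on control arrays and from 661 to 1314 on diabetic arrays.

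The balance between beta chains was compared as the difference of 2 log2 values on the same array, by exact permutation over all relabelings of the arrays (two-sided, adjusted over the 3 pairs). Atp1b2 minus Atp1b1 was 0.91 ± 0.10 in both groups (SD, n = 6 each; exact permutation p = 0.978, adjusted p = 0.978). Atp1b3 minus Atp1b1 was 0.16 higher in diabetic retinas (-1.56 ± 0.23 in controls against -1.40 ± 0.18; exact permutation p = 0.223, adjusted p = 0.568). Atp1b3 minus Atp1b2 was also 0.16 higher (-2.47 ± 0.32 against -2.31 ± 0.24; exact permutation p = 0.379, adjusted p = 0.568). No shift of the balance between beta chains was detected with 6 arrays a group. Control 5 had the lowest value in both comparisons with Atp1b3. Without it Atp1b3 minus Atp1b1 differed by 0.070 and Atp1b3 minus Atp1b2 by 0.035 (adjusted p = 0.758 for each, exact permutation).

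Within the groups, Atp1b1 varied from array to array together with the ganglion cell and microglia marker lists. Deviations from the group mean were correlated over the 12 arrays in 48 relations (the 3 pairs of beta chains, and each beta chain with 15 marker lists), with exact permutation of the arrays within groups and adjustment over the 48. These correlations were not planned. All arrays share a normalization, which ties every gene to the others. With the mean of 9 ganglion cell markers, Atp1b1 had a Pearson r of 0.84 (exact permutation p = 0.000725, adjusted p = 0.0174) and a Spearman rho of 0.85 (exact permutation p = 0.00181, adjusted p = 0.0431). The r was 0.87 among controls and 0.86 among diabetic retinas (n = 6 each), and 0.82 without controls 2 and 6, which lay farthest out on the marker axis. Diabetic 2 and control 6 were lowest, and controls 2 and 3 and diabetic 3 highest, for both.

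With 6 microglia markers, Atp1b1 had an r of 0.88 (exact permutation p = 0.000289, adjusted p = 0.0139) and a rho of 0.92 (exact permutation p = 0.000278, adjusted p = 0.0133). That r was 0.81 among controls, 0.93 among diabetic retinas and 0.81 without diabetic 2 and 3. The microglia list was dim, with array means from 5.63 to 5.73 where the array median was 5.73. With 11 Mueller glia markers the r was 0.79 (exact permutation p = 0.00401, adjusted p = 0.0642; rho 0.82, exact permutation p = 0.00359, adjusted p = 0.0431), and it was 0.80 without controls 3 and 5. The amacrine cell list had an r of 0.67 (exact permutation p = 0.0168, adjusted p = 0.161; rho 0.82, exact permutation p = 0.00303, adjusted p = 0.0431), and 0.54 without control 3 and diabetic 3. Both lists passed on rho and not on r. The bipolar cell list, also of the inner retina, had an r of 0.24 (exact permutation p = 0.479, adjusted p = 0.757; rho 0.14, adjusted p = 0.823). With 10 rod markers the r was -0.51 (exact permutation p = 0.117, adjusted p = 0.529). Also short of the threshold, the astrocyte list had an r of 0.65 (exact permutation p = 0.0308, adjusted p = 0.224; rho 0.73, adjusted p = 0.126). For the lens list the r was 0.050, and 0.70 without diabetic 2 and 6. Fewer cells of a type and less RNA per cell cannot be told apart in whole retina.

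Atp1b2 and Atp1b3 had no relation past the adjusted threshold with any of the 15 marker lists. The highest r of Atp1b3 was 0.75, with Mueller glia markers (exact permutation p = 0.0124, adjusted p = 0.149; rho 0.63, adjusted p = 0.314), and it was 0.69 without controls 3 and 5. Atp1b2 with the same markers had an r of -0.19 (exact permutation p = 0.607, adjusted p = 0.797). Between members, Atp1b1 and Atp1b3 had an r of 0.64 (exact permutation p = 0.0327, adjusted p = 0.224; rho 0.52, adjusted p = 0.447), and 0.50 without control 5 and diabetic 2. Atp1b2 and Atp1b3 had an r of -0.49 (exact permutation p = 0.169, adjusted p = 0.529), which turned to 0.29 without the same arrays. The r of this pair was -0.70 among controls, where control 5 was highest for Atp1b2 and lowest for Atp1b3. Among diabetic retinas it was 0.14. Atp1b1 and Atp1b2 had an r of 0.094 (exact permutation p = 0.799, adjusted p = 0.871).

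**Figure D2:**
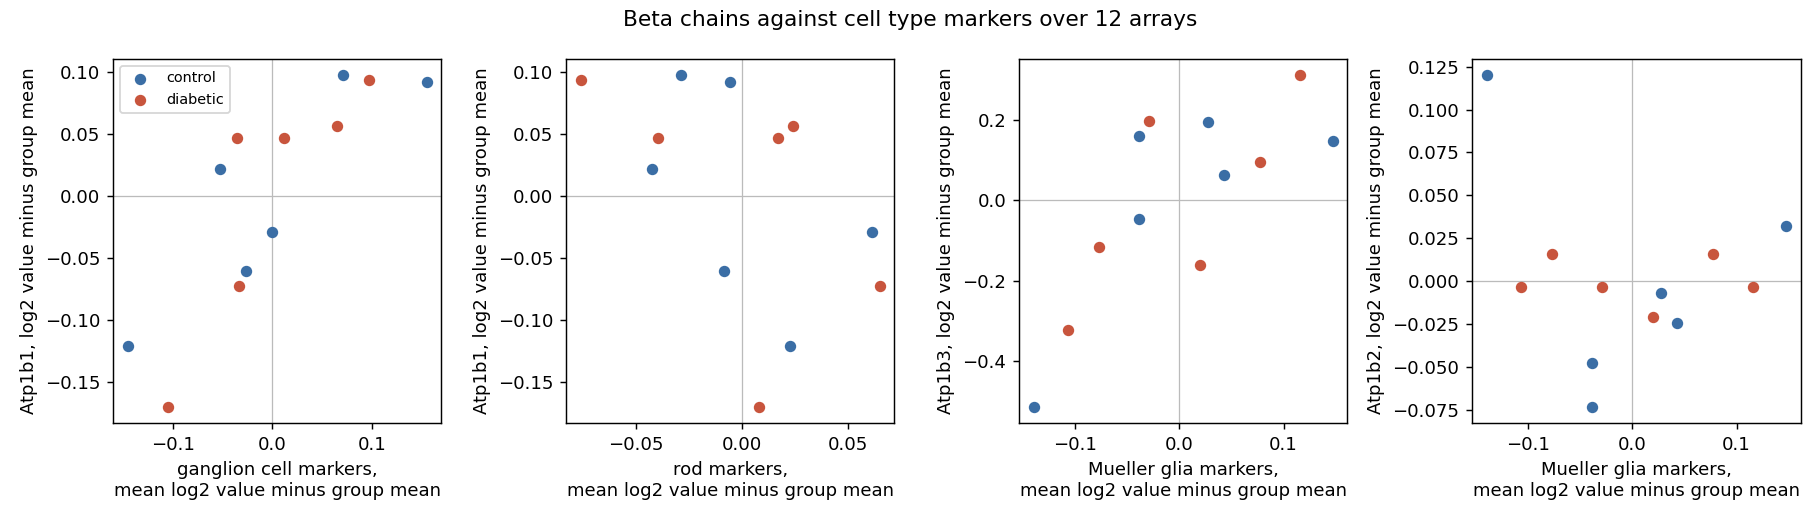
Log2 value of a beta chain (vertical axis) against the mean log2 value of a marker list (horizontal axis), both minus their group mean, 1 point per array for 6 control and 6 diabetic retinas. Atp1b1 rises with ganglion cell markers (r = 0.84) and falls, short of the threshold, with rod markers (r = -0.51), Atp1b3 rises with Mueller glia markers (r = 0.75, not past the adjusted threshold), while Atp1b2 does not follow the Mueller glia markers (r = -0.19).

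The genes whose deviations were most like those of a beta chain were sought among 10712 brighter and more variable genes (10713 for Atp1b2). For Atp1b1 these were Ppm1l, a protein phosphatase (r = 0.95, rho = 0.93), Nefl, the neurofilament light chain and itself a member of the ganglion cell list (r = 0.95, rho = 0.96), and Brinp1, a neuronal gene (r = 0.94, rho = 0.90). For Atp1b3 they were Smim11 (r = 0.93, rho = 0.89), Dstn, which encodes the actin-severing protein destrin (r = 0.92, rho = 0.94), and Serp1, a protein of the endoplasmic reticulum membrane (r = 0.89, rho = 0.76). For Atp1b2 they were the small nucleolar RNA Snord34 (r = 0.94, rho = 0.84), Mbd6 (r = 0.90, rho = 0.58) and the transcription factor gene Zfhx3 (r = 0.89, rho = 0.78). These 9 were picked as the highest of many over 12 arrays and are a description. None of them passed the test between groups, and their log2 differences ran from -0.19 for Snord34 to 0.14 for Zfhx3.

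Among the genes that work with the pump, 69 of the 79 on 8 lists were analysed, and 2 of them passed, both lower in diabetic retinas. This is 2.90% of the 69, beside 3.24% of all genes in either direction and 1.77% of all genes lower. The median log2 difference of the 69 was -0.0037, beside -0.0018 for all genes. The 2 were Fxyd6 and Calr. Fxyd6 encodes a small membrane protein of the FXYD family that binds the pump and tunes its affinity for ions. Calr encodes the chaperone calreticulin, which helps glycoproteins fold in the endoplasmic reticulum. Without control 1, 2, 3 or 6 or diabetic 3 or 4, Fxyd6 alone passed, and without control 4, control 5 or diabetic 2 there were 4 genes.

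Fxyd6 fell in diabetic retinas. Controls 1 to 6 read 9.06, 9.23, 9.21, 9.12, 9.23 and 9.05, and diabetic animals 8.85, 8.76, 9.01, 8.80, 8.77 and 8.88. Every diabetic array lay below every control array, with diabetic 3 the nearest to the controls. The groups were separate in this way for 2.84% of all genes and for no beta chain. The control mean was 9.15 ± 0.08 and the diabetic mean 8.84 ± 0.09 (SD, n = 6 each). It fell by 0.31 ± 0.05 on the log2 scale, to 0.808-fold (SE; adjusted p = 0.0114, limma; 95% interval 0.752-fold to 0.868-fold). The call held in all 12 fits that left out 1 array, with differences from -0.34 to -0.29 and adjusted p from 0.0165 to 0.0277, and in the 9 other alternatives (adjusted p from 0.00607 to 0.0383). Without diabetic 2 and 6 it fell by 0.29 (adjusted p = 0.0378, limma).

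The other 6 FXYD genes did not pass. Fxyd1, which encodes phospholemman, read from 7.17 to 7.69 in controls and from 7.24 to 7.35 in diabetic animals (difference -0.19 ± 0.07, SE; adjusted p = 0.150, limma). Control 4 lay below all diabetic arrays and the other 5 controls above them, and without control 4 it fell by 0.25 (adjusted p = 0.0272). Of the family, 4 genes had a mean under 6, near the array median of 5.73, where a missing call says little. Whether the difference of Fxyd6 is larger than that of other FXYD genes was not tested.

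Of 111 markers on the 15 lists, 5 passed the test (4.50%), beside 3.24% of all genes. None of the 11 Mueller glia, 6 microglia or 9 ganglion cell markers did. The horizontal cell list read from 7.42 to 7.50 in controls and from 7.37 to 7.43 in diabetic retinas, with 1 of 6 markers past the test and lower. The cone list read from 9.22 to 9.36 and from 9.12 to 9.25 (1 of 10 lower), the rod list from 12.25 to 12.36 and from 12.16 to 12.30 (1 of 10 lower), and the 4 astrocyte markers from 5.60 to 5.67 and from 5.65 to 5.73 (1 higher). Pericyte and smooth muscle markers read from 6.57 to 6.67 and from 6.54 to 6.61 (1 of 6 lower). With the rod mean as a covariate, Fxyd6 fell by 0.39 (adjusted p = 0.0319, limma), with the ganglion cell mean by 0.26 (adjusted p = 0.0270) and with the lens and pigment epithelium means by 0.31 (adjusted p = 0.0219). The part of cone, horizontal cell, astrocyte and pericyte markers in the result was not tested.

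Calr read from 11.80 to 12.04 in controls and from 11.47 to 11.77 in diabetic animals, again without overlap. It fell by 0.29 ± 0.06 (SE; adjusted p = 0.0286, limma), and this call was lost in 6 of the 12 fits with 1 array left out (adjusted p up to 0.0584), namely those without control 1, 2, 3 or 6 or diabetic 3 or 4. The difference itself stayed between -0.32 and -0.26 in all 12. Among 14 interacting proteins it was the only one past the test. Agrn, which encodes agrin, a matrix protein that binds the pump in neurons, was next, at 7.17 to 7.42 in controls and 7.32 to 7.55 in diabetic retinas (0.16 ± 0.04; adjusted p = 0.0697).

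**Figure D3:**
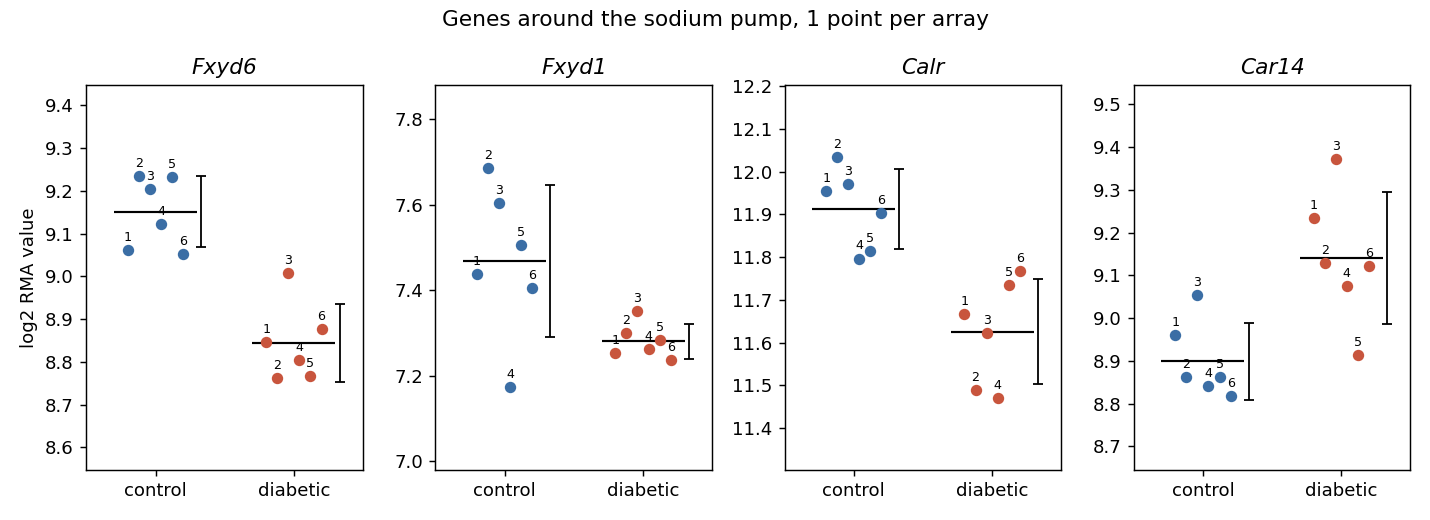
Log2 RMA values of 4 pump-related genes, 1 point per array with its replicate number, for 6 control and 6 diabetic retinas; the line is the group mean and the bar the SD, and every panel spans 0.9 log2 units. The groups are separate for Fxyd6 and Calr and overlap for Fxyd1 and Car14.

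None of 16 carriers that run on the sodium gradient or move chloride, 14 cation channels, 7 calcium pumps or 6 carbonic anhydrase, water and gap junction channel genes passed. The smallest p among channels were those of Kcnv2, a potassium channel subunit of photoreceptors (-0.16 ± 0.04; adjusted p = 0.0648), and Cngb1, a subunit of the rod cation channel (-0.12 ± 0.04; adjusted p = 0.0949). With the rod marker mean as a covariate these differences were -0.090 and -0.060. Among carriers they were those of Slc8a3, a sodium-calcium exchanger (-0.10 ± 0.04; adjusted p = 0.187), and Slc4a4, a sodium bicarbonate carrier (0.19 ± 0.09; adjusted p = 0.259). That of Slc4a4 was 0.13 without diabetic 6, 0.12 without diabetic 2 and 6, and 0.10 with the rod covariate. The plasma membrane calcium pump gene Atp2b1 differed by 0.071 ± 0.026 (adjusted p = 0.146) and Atp2a3, of the endoplasmic reticulum, by -0.048 ± 0.019 (adjusted p = 0.173). Atp2b1 differed by 0.041 without diabetic 2 and 6, and Atp2a3 by -0.019 with the rod covariate. Car14, a membrane-bound carbonic anhydrase, differed by 0.24 ± 0.07 (adjusted p = 0.0742) and Gjd2, the connexin of neuronal gap junctions, by -0.076 ± 0.031 (adjusted p = 0.190). With the rod covariate they differed by 0.16 and -0.046. The same covariate moved Atp2b1 (0.070), Slc8a3 (-0.088), Fxyd1 (-0.19) and Agrn (0.19) less.

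Atp1a4 and 4 genes related to the sodium pump chains were dim. Atp1a4 had a mean of 5.48 in controls and 5.44 in diabetic retinas, below the array median of 5.73, and differed by -0.042 ± 0.023 (adjusted p = 0.328), or by -0.0065 with the rod covariate. The gastric proton pump chains Atp4a (5.52 and 5.47; adjusted p = 0.118) and Atp4b (5.55 and 5.51; adjusted p = 0.374) had the smallest p of 4 related genes, none of which passed. All 4 differences were below 0 (median -0.027, from -0.049 to -0.0037), as were those of 12740 of all 24570 genes. All 4 genes had a mean under 6.

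**Figure D4:**
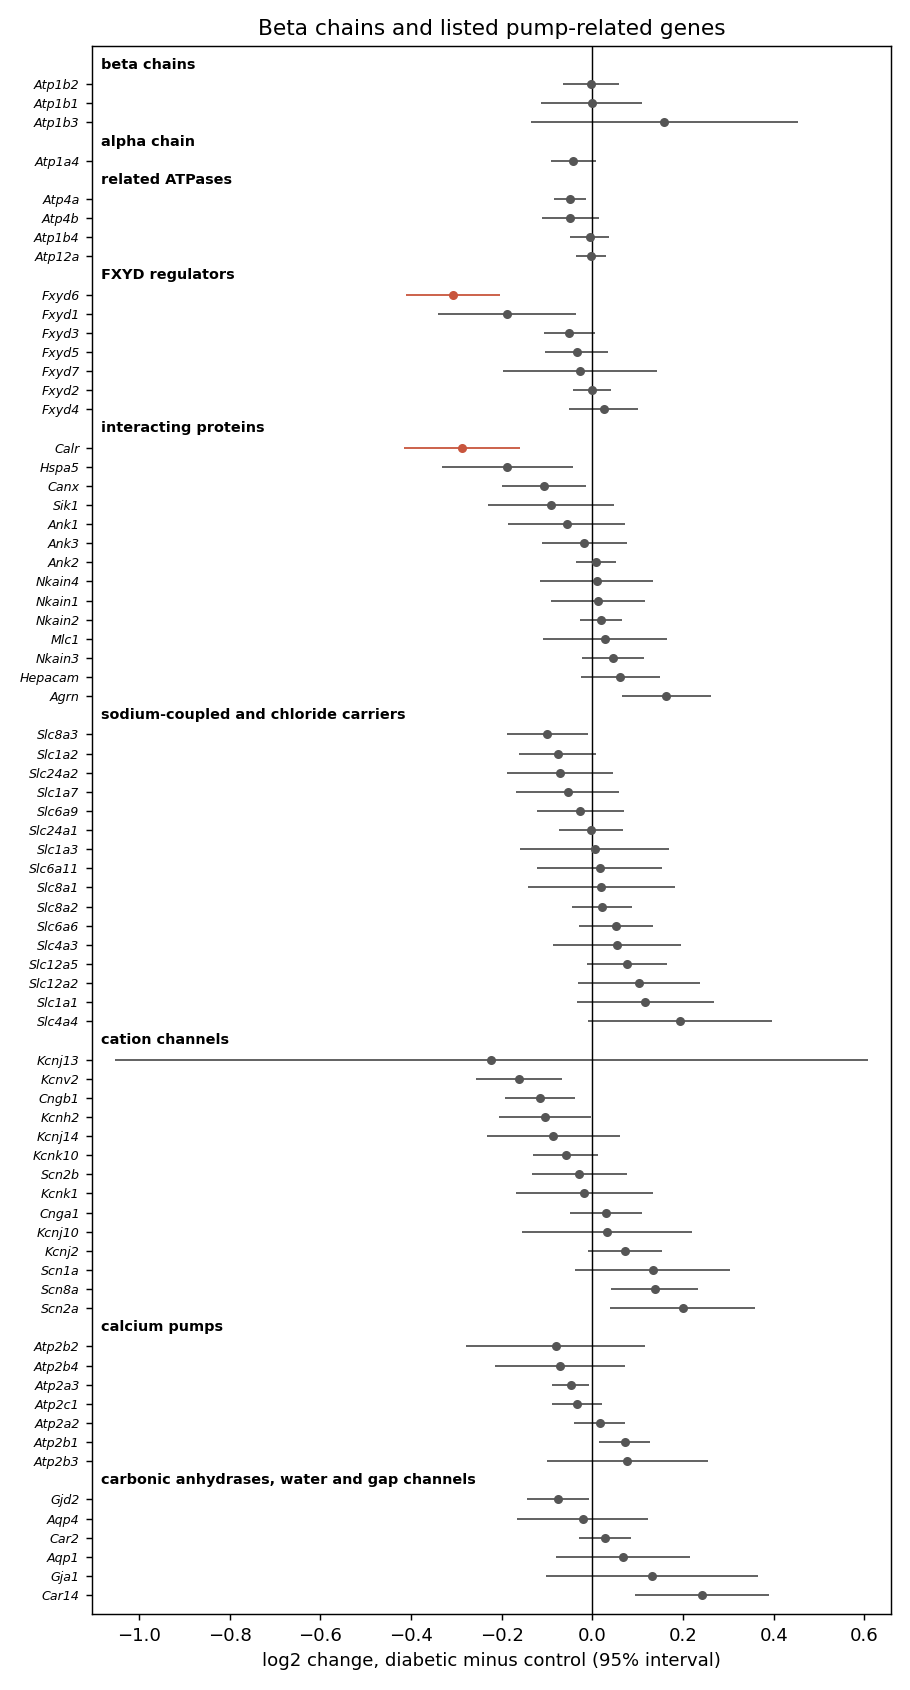
Log2 change, diabetic minus control, with its 95% interval (6 arrays per group, limma) for the 3 beta chains and 69 pump-related genes grouped by list; coloured points passed the test over all genes. The intervals of Atp1b1 and Atp1b2 are narrow around 0, that of Atp1b3 is wide, and Fxyd6 and Calr lie below 0.

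**Figure D5:**
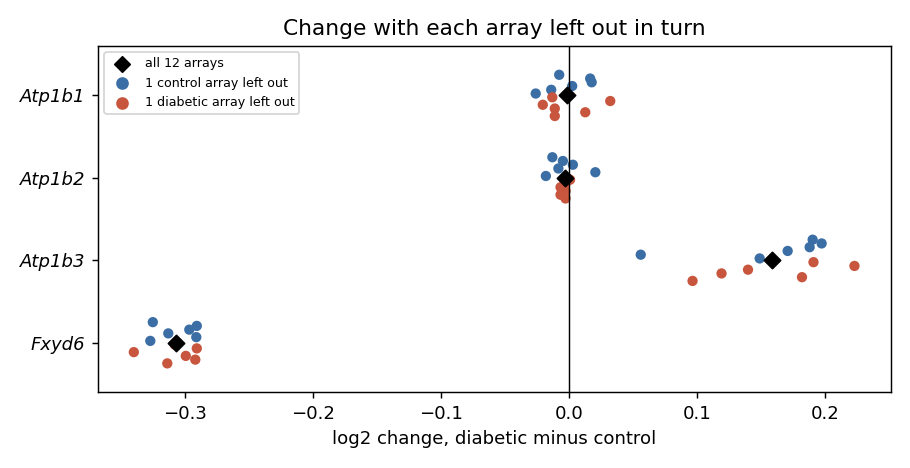
Log2 change of the 3 beta chains and of Fxyd6, diabetic minus control, with all 12 arrays (diamonds) and with each array left out in turn (circles, coloured by the group of the array left out). Atp1b1 and Atp1b2 stay around 0, Atp1b3 drops from 0.16 to 0.056 without control 5, and Fxyd6 stays between -0.34 and -0.29.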

How the data were processed

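RNA of whole retinas was hybridised to Affymetrix arrays as biotinylated cRNA, per the labels' protocols. The deposited table holds log2 values made with RMA (background correction, quantile normalization, probe summary), per the submitters' processing notes, whose version, array and probe set definition are not given in the sources used here. Its 24973 lines are Entrez gene numbers. Sorted values were identical on all 12 arrays, so a shift of most genes would not show. Lines were named with the platform annotation (24015) or RefSeq GRCm38.p6 (559 more), 399 unnamed lines were left out, and the brightest line was kept for 4 repeated symbols, leaving 24570 genes. Only genes the platform annotation names are reported, and 10 genes of the pump lists were not analysed here.

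Diabetic minus control was fitted with limma 3.58.1 (lmFit, eBayes; R 4.3.3) over all genes, without a filter on dim genes, two-sided, with Benjamini-Hochberg adjustment and a threshold of 0.05. Intervals cover 95%. Exact permutation of the differences between beta chains used scipy 1.17.1 and all relabelings. That of the correlations was computed with numpy 2.4.6 over all 518400 orders of the arrays within groups. The procedure was tested on simulated data. Named were the beta chains, the 2 genes of smallest p in each pump list, and the 3 genes most like each beta chain. Listed genes past the test were named too, also those past it under an alternative alone. Members and lists were chosen with earlier results of these data known. The sources used here do not say how animals were spread over collection days. Precision is limited by the number of arrays and by the spread between animals, which differs between genes. Alternatives covered variance model, array weights, dim genes, cyclic loess, replicate block, marker covariates and each array left out; the ganglion cell covariate, the removal of diabetic 2 and 6 and cyclic loess for correlations were chosen after seeing the data.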

Additional observations from a re-analysis of the deposited data

Results flagged for a closer look

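An array lay far from the other 5 of its group, by the ratio of its gap to the range of the group, in 6 of 42 groups examined (14.3%), where chance gives about 1 in 20. Control 5 was low for Atp1b3 (9.57 against 10.03 for the nearest control; ratio 0.657). The same array was therefore low for Atp1b3 minus Atp1b1 (ratio 0.768) and for Atp1b3 minus Atp1b2 (ratio 0.784), which are not separate observations. Control 5 was also high for Slc8a3 (9.31 against 9.21; ratio 0.671). Control 2 was low for Atp2b1 (11.63 against 11.68; ratio 0.700), and diabetic 2 was high for Atp4b (5.61 against 5.50; ratio 0.761).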

How the results depend on the processing

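No beta chain passed the test under any of the 21 alternatives. The sign of Atp1b1 turned with array weights (0.012), the ganglion cell covariate (0.058) and diabetic 2 and 6 left out (0.029), it was lowest with the rod covariate (-0.061), and its difference ran from -0.026 to 0.032 with 1 array left out. That of Atp1b2 turned with array weights (0.0058) and the ganglion cell covariate (0.0053), and ran from -0.018 to 0.021 with 1 array left out. Atp1b3 stayed above 0, from 0.056 to 0.22 with 1 array left out and from 0.089 (rod covariate) to 0.23 (ganglion cell covariate) otherwise. Atp1b2 minus Atp1b1 ran from -0.035 to 0.035. Pump-related genes past the test numbered 4 with a variance trend, 4 with the replicate block, 1 with the rod covariate, 1 with the ganglion cell covariate, and 1 to 4 with 1 array left out. Fxyd6 was among them each time. Genes past the test in all numbered 797, against 506 with the replicate block, 23 with the rod covariate, 312 with the ganglion cell covariate, 379 without diabetic 2 and 6, and 325 (without diabetic 4) to 835 with 1 array left out. Over all genes, the deviations of same-numbered animals correlated from -0.16 to 0.17, and 2 of the 12 samples matched their own number best. Such correlations cannot exclude a shared factor that acts on some genes. Under the replicate block Calr lost its call (-0.29, adjusted p = 0.0632, limma), with a difference of -0.29 among all arrays. Its call was also lost with the rod (-0.27, adjusted p = 0.155, limma) and ganglion cell covariates (-0.25, adjusted p = 0.0676, limma). Car14 passed under 4 alternatives, Agrn under 4, Kcnv2 under 3 and Fxyd1 under 1. The channel genes Scn2a and Kcnh2 passed with the replicate block and without control 4, respectively. The carrier gene Slc12a2 passed without diabetic 2.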
